A study of Mus musculus with 24 samples.

Results

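The 76 genes described here encode proteins of the cytosolic ribosome in mouse, 30 of the small (40S) subunit and 46 of the large (60S) subunit. They were chosen by symbol alone, as the rows named Rpl, Rps or Rplp with a number and at most one further letter a or x, plus Rpsa, and they are 76 of the 26267 genes in the table. Pseudogenes and the ribosomal S6 kinases fall outside that pattern, and so do some further genes of the cytosolic ribosome such as Fau and Rps3a1, which are described separately below. Expression was measured by RNA sequencing of sorted bone marrow LSK cells, the lineage-negative, Sca-1- and Kit-positive fraction that holds stem cells and early progenitors. The 24 libraries fall into 8 groups. Poly(I:C) is an artificial mimic of viral RNA that sets off the interferon response, and libraries treated with it were 2 from mice carrying both the Fancg knockout and the Mdm4 transgene (FancgKO_Mdm4Tg), 3 with the knockout only (FancgKO), 2 with the transgene only (Mdm4Tg) and 3 wild type (WT). The libraries with the PBS vehicle were 3 FancgKO_Mdm4Tg, 4 FancgKO, 3 Mdm4Tg and 4 WT. The Fancg protein works in the Fanconi anaemia pathway of DNA crosslink repair, and Mdm4 encodes an inhibitor of p53. The labels name no age, sex, strain, poly(I:C) dose or schedule, transgene promoter or deleted exons, and nothing in them says that libraries came from separate animals, so p-values measure the spread between these libraries, which may be technical.

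A ribosome joins a 40S subunit, which reads the mRNA, to a 60S subunit, which makes the peptide bond. Most ribosomal proteins are needed in about equal number. The mRNAs of vertebrate ribosomal proteins begin with a terminal oligopyrimidine (TOP) tract, a C at the cap site followed by a run of C and T, through which mTOR signalling and the protein LARP1 control their translation and stability. Unassembled RPL5 and RPL11, bound to 5S ribosomal RNA, hold back MDM2, the ubiquitin ligase that degrades p53 together with its partner MDM4, and inherited loss of a copy of RPS19 or of several other ribosomal protein genes in people causes Diamond-Blackfan anaemia, a failure of red cell production. Haematopoietic stem cells are known for a low rate of protein synthesis.

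Every value below is a normalized count, the authors' read count per gene divided by a size factor of the library. Library titles carry a number and end in d (12 libraries, numbers 6 and 7) or d_2 (12 libraries, numbers 2, 4 and 8), and the labels do not say what the suffix stands for. All 4 poly(I:C) libraries of suffix d_2 have the number 8, one in each genotype. Depth ranged from 807686 to 8229715 reads per library, with 5491225 to 8229715 in the 4 poly(I:C) libraries of suffix d_2, 949156 to 4801746 in the 8 PBS libraries of suffix d_2, 1697596 to 5267584 in the 6 poly(I:C) libraries of suffix d and 807686 to 2880217 in the 6 PBS libraries of suffix d. Mdm4 matched its labels, with 5023 to 7105 in the 10 libraries with the transgene against 751 to 1293 in the 14 without it. Fancg did not separate the genotypes, with 26.1 to 71.4 (median 49.2) in the 12 knockout libraries against 41.3 to 78.4 (median 65.2) in the other 12, and where its reads lie relative to the deleted part is not known here. The summed level of 10 LSK and stem cell markers was 3785 to 6328 with poly(I:C) against 5147 to 8866 with PBS. Of the genes behind the gate, Kit was at 1483 to 2414 over all libraries and Ly6a, which encodes Sca-1, at 11.7 to 45.9. T and NK cell markers summed to at most 16.0 in every library, and the mature neutrophil genes Ltf, Camp and Fcnb had a median of 0.

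The sequence at the start of these genes is shown because the TOP tract is the feature that ribosomal protein mRNAs share. RefSeq start sites (GRCm38.p6) were found for 56 of the 76 genes, with 66 starts in all. A tract at the annotated first base, taken as a C followed by at least 4 bases that are each C or T on the gene's own strand, stood at 13 of the 66 starts (19.7%), against 823 of 32851 RefSeq starts of all genes (2.51%). Allowing the tract to begin up to 5 bases on either side gave 29 of 66 starts (43.9%) against 18.3% of all starts. The count depends on where RefSeq places the first base. In these windows of 30 bases, from 10 bases before the annotated start, capitals mark the tract:
Rpl15 (60S), chr14:18270967-18270996, minus strand: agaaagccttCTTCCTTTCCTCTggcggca
Rplp2 (60S stalk), chr7:141447641-141447670, plus strand: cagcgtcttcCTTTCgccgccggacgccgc
Rps15a (40S), chr7:118116128-118116157, minus strand: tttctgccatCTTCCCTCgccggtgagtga
Rps21 (40S), chr2:180257369-180257398, plus strand: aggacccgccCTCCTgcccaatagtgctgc
Rps27 (40S), chr3:90213629-90213658, minus strand: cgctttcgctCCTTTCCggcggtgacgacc
Rps6 (40S, the substrate of the S6 kinases), chr4:86857348-86857377, minus strand: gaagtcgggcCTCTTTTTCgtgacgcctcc

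All 76 genes passed the filter on low values (2 or more libraries at 10 or above), as 12628 of the 26267 genes did, and none was at 0 in any library. Levels between genes are compared per kilobase of the longest principal transcript. Rplp1, an acidic protein of the 60S stalk, had the highest mean level at 2352 per kilobase, and further high levels were those of Rpl4 at 1905, Rps12 at 1584 and Rpl32 at 1337. The median over the 76 genes was 570 per kilobase, and Rpl24 was lowest at 18.4, below Rpl18 at 74.0 and Rpl13a at 100.3. This order depends on the transcript length used, which had a median of 882 bases. For Rpl18 it was 2989 bases, with a mean count of 221. Rps15a (5179 bases, mean count 878) and Rps20 (3706 bases, mean count 1109) likewise came to only 170 and 299 per kilobase. The table also holds 244 named ribosomal protein pseudogenes, and how reads that match both a gene and a processed copy were counted is not given in the sources used here, so the level of a gene with many copies is uncertain. Pseudogene counts summed to 775 to 894 in the poly(I:C) libraries of suffix d_2 against 448 to 682 in the PBS libraries of suffix d_2.

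Together the 76 genes took 1.09% to 2.14% of each library's normalized counts. With PBS this share was low in every library of suffix d_2 and high in every library of suffix d, and with poly(I:C) it was in the upper range in both. The 4 poly(I:C) libraries of suffix d_2 held 1.95% (FancgKO_Mdm4Tg), 1.75% (FancgKO), 1.82% (Mdm4Tg) and 1.88% (WT), against 1.09% to 1.53% (median 1.44%) in the 8 PBS libraries of suffix d_2. The ranges did not overlap. With suffix d the share was 1.70% to 2.14% (median 2.00%) in 6 poly(I:C) libraries against 1.71% to 2.13% (median 1.95%) in 6 PBS libraries, and the ranges lay on each other. Over both suffixes the share averaged 1.91% ± 0.15 with poly(I:C) (SD, n = 10) and 1.62% ± 0.31 with PBS (SD, n = 14). In libraries of the same genotype and number, the share with poly(I:C) minus that with PBS was 0.468 percentage points in WT number 8, 0.609 in Mdm4Tg number 8 and 0.468 in FancgKO_Mdm4Tg number 8, while the 6 pairs of numbers 6 and 7 lay between -0.280 and 0.202. In those 3 pairs of number 8 all 76, 75 and all 76 genes were higher in the poly(I:C) library. In the pairs of number 7 the count was 58 in FancgKO_Mdm4Tg, 3 in FancgKO, 65 in Mdm4Tg and 47 in WT. In the pairs of number 6 it was 70 in FancgKO and 41 in WT. Each pair compares single libraries, and the 76 genes of a pair share those libraries. The share of all genes tested that were higher in these pairs is not given here, so the counts cannot be set against it.

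**Figure D1:**
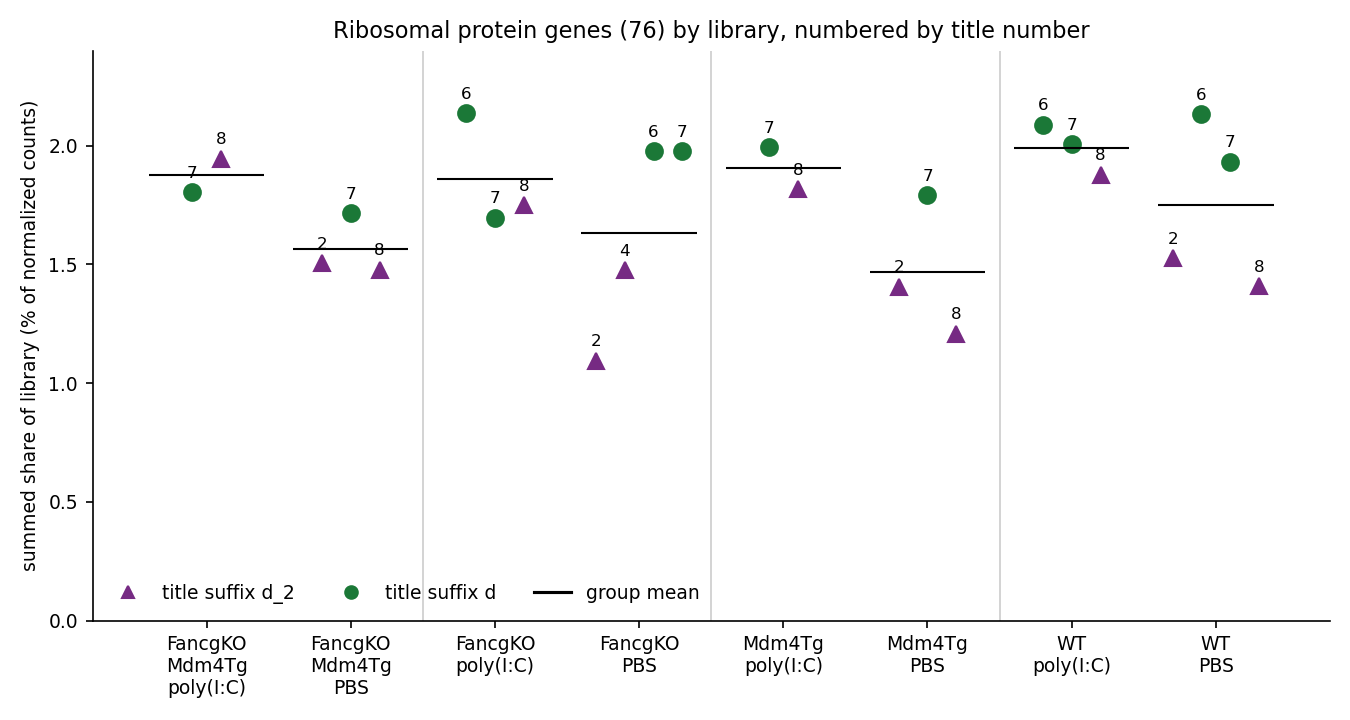
Summed share of the 76 ribosomal protein genes in each library's normalized counts (percent), by genotype and treatment, with triangles for title suffix d_2, circles for suffix d, the title number beside each point and a line at the group mean. All 8 PBS triangles lie at or below 1.53%, and all other points lie at or above 1.70%.

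Other measures moved with the same libraries. Genes of the mitochondrial genome took 9.41% to 10.6% of counts in the poly(I:C) libraries of suffix d_2 against 5.37% to 8.28% in the PBS libraries of suffix d_2, and 5.27% to 7.67% against 5.33% to 6.54% with suffix d. Granulocyte markers summed to 8217 to 13228 in the poly(I:C) libraries of suffix d_2 against 1424 to 3251 in the PBS libraries of suffix d_2, and to 5707 to 22407 against 3647 to 13547 with suffix d. Monocyte markers followed the same order, with 1335 to 2122 against 235 to 512 with suffix d_2 and 484 to 1622 against 394 to 1078 with suffix d. Erythroid markers summed to 961 to 1847 with poly(I:C) against 634 to 1205 with PBS, with Hba-a1, Hba-a2 and Alas2 at a median of 0. All 6 granulocyte markers and all 6 monocyte markers that passed the filter rose in the average over genotypes, 5 of 6 erythroid markers and 3 of 6 mast cell and basophil markers did, and 8 of the 10 LSK and stem cell markers fell. In a joint fit of all 24 libraries with terms for the suffix, none of the granulocyte or monocyte markers was called with suffix d. Their log2 differences with suffix d stayed positive and large (median 0.87 over 6 granulocyte and 1.07 over 6 monocyte markers). The mast cell gene Ms4a2 rose there by 1.56 ± 0.26 (adjusted p = 0.00616) and the progenitor genes Flt3 (-0.97 ± 0.19, 0.0168) and Cd34 (-0.41 ± 0.08, 0.0175) fell. A ribosomal RNA gene took 0.179% to 0.898% of counts with poly(I:C) against 0.337% to 6.12% with PBS. After mitochondrial genes and this ribosomal RNA gene were left out of the total, the share of the 76 genes was still 1.94% to 2.17% in the poly(I:C) libraries of suffix d_2 against 1.22% to 1.71% in the PBS libraries of suffix d_2. In such bulk samples, fewer cells of a type and less RNA per cell cannot be told apart, and the part that cell makeup and depth played in the ribosomal protein values was not tested.

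Averaged over the 4 genotypes, poly(I:C) raised 26 of the 76 genes and lowered none, where 11.9% of the 12628 genes tested rose. The difference was positive for all 76, with a median of 0.35 on the log2(normalized count + 1) scale against 0.01 over all genes tested, and 57 had an unadjusted p under 0.05. The median was 0.33 over the 40S genes and 0.35 over the 60S genes. The test was limma over all genes with Benjamini-Hochberg adjustment at 0.05, and it applies to all adjusted p-values below. With the title suffix as a covariate the count was 48, where 18.4% of all genes rose, and it was 7 without the FancgKO_Mdm4Tg poly(I:C) library number 8, 15 without FancgKO poly(I:C) number 6 or Mdm4Tg PBS number 8, 16 without WT poly(I:C) number 6, 17 without Mdm4Tg poly(I:C) number 7 and 40 without WT PBS number 6. Among genes with a mean of at least 50, the log2 difference was largest for Rpl27, whose loss of a copy is one cause of Diamond-Blackfan anaemia in people, at 0.66 ± 0.16 (SE, adjusted p = 0.00557). Next came Rpl36 at 0.61 ± 0.26 (adjusted p = 0.0972), Rpl29 at 0.58 ± 0.32 (0.190) and Rpl41, the shortest ribosomal protein, at 0.52 ± 0.21 (0.0795), which varied more between libraries and did not pass. Rps21, a small protein of the 40S subunit, followed at 0.50 ± 0.13 and did pass (adjusted p = 0.0102). The lowest were Rps24 at 0.00 ± 0.07 (adjusted p = 0.997), Rpl5 at 0.10 ± 0.07 (0.337), Rps4x at 0.13 ± 0.13 (0.496), Rpl36a at 0.17 ± 0.09 (0.196) and Rpl22 at 0.17 ± 0.07 (0.0965).

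The response was then estimated for each of the 2 suffixes in a joint fit of all 24 libraries. Terms for the suffix and for suffix by poly(I:C) were added to the group means, a model chosen after the data were seen. Among libraries of suffix d_2, poly(I:C) raised 70 of the 76 genes, where 20.5% of all genes rose, with a median log2 difference of 0.51 and a range of 0.07 to 1.08. The 6 that did not pass included Rps24, Rps4x, Rpl36a, Rpl37 and Rpl24. Leaving out 1 library at a time gave 44 to 72 genes. Among libraries of suffix d no gene of the 76 was called by limma, edgeR or DESeq2, 1 had an unadjusted p under 0.05, the median log2 difference was 0.05 (-0.010 to 0.14 with 1 library left out) with a range of -0.15 to 0.29 over genes, and 0.364% of all genes rose. The difference between the 2 responses was positive for all 76 with a median of 0.43, but none passed with limma, where 0.0871% of all genes did. The smallest adjusted p was 0.0559, for Rpl13, and 60 genes had an unadjusted p under 0.05. That count was 1 with edgeR, 14 with DESeq2 and 13 with TMM scaling, and leaving out 1 library at a time gave 0 to 32. The highest of these came without FancgKO poly(I:C) number 6 (32), and it was 20 without FancgKO_Mdm4Tg PBS number 7, 11 without FancgKO_Mdm4Tg PBS number 2, 8 without WT poly(I:C) number 6, 3 without FancgKO_Mdm4Tg PBS number 8 and 2 without FancgKO PBS number 4. Thus whether single genes responded differently in the 2 suffixes depended on the setting.

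**Figure D2:**
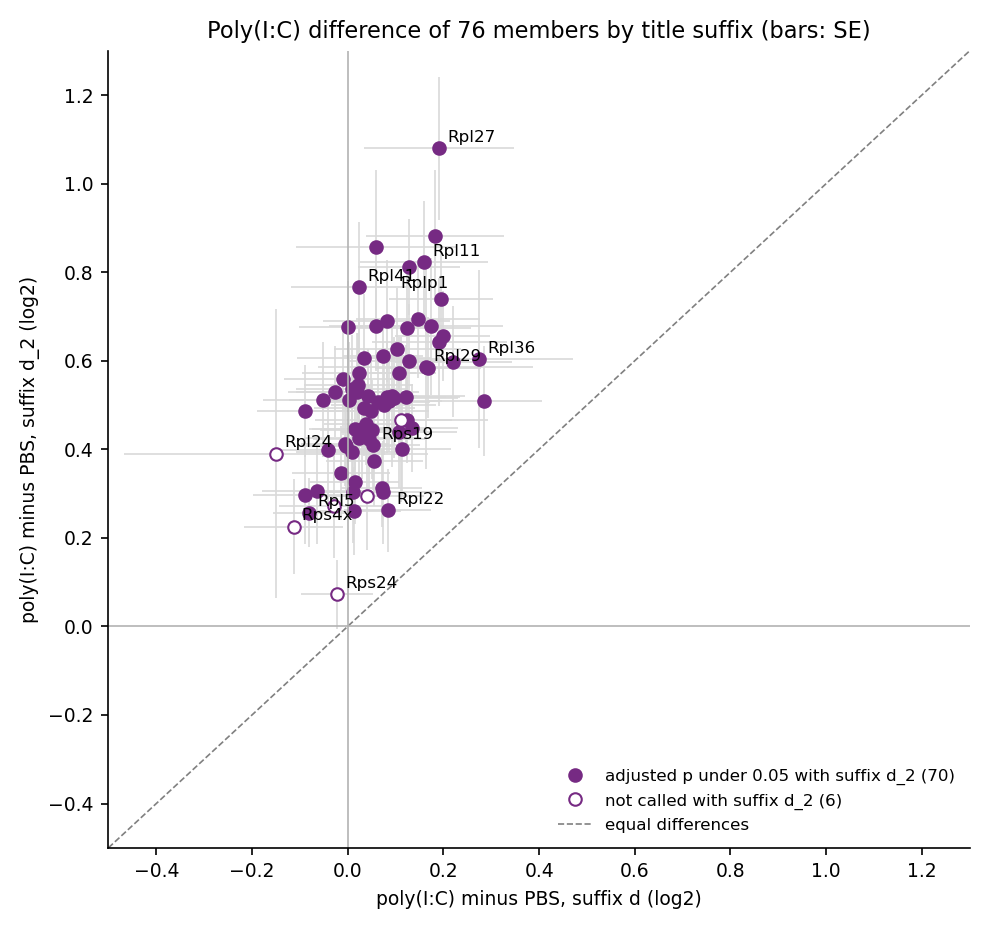
Log2 difference of poly(I:C) minus PBS for each of the 76 genes with suffix d_2 (vertical axis) and with suffix d (horizontal axis), with bars for the SE, filled points for the 70 genes called with suffix d_2, open points for the 6 not called, and a dashed line where both are equal. All 76 points lie above the dashed line, and Rps24 lies nearest to it.

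By role, the stalk proteins that recruit elongation factors to the 60S subunit come first. In the poly(I:C) libraries of suffix d_2, in the order FancgKO_Mdm4Tg, FancgKO, Mdm4Tg and WT, Rplp1 had 1590, 1406, 1514 and 1483, against 730 to 1034 (median 855) in the PBS libraries of suffix d_2. With suffix d it had 1052 to 1618 (median 1291) with poly(I:C) against 984 to 1467 (median 1206) with PBS. The groups were apart with suffix d_2 and overlapped with suffix d. The log2 difference of Rplp1 was 0.81 ± 0.11 with suffix d_2 (adjusted p = 2.87e-05, the smallest of the 76) and 0.13 ± 0.11 with suffix d (0.576). Rplp2, the partner of Rplp1, rose by 0.51 ± 0.11 with suffix d_2 (adjusted p = 0.00149). Rplp0, which anchors the stalk to the ribosome, had 1440, 1380, 1252 and 1285 in the poly(I:C) libraries of suffix d_2, in the same order of genotypes, against 772 to 1200 (median 915) in the PBS libraries of suffix d_2. It rose by 0.52 ± 0.11 there (adjusted p = 0.000716), yet it stayed below the 1539 to 2077 of the poly(I:C) libraries of suffix d, and PBS libraries of suffix d had 1508 to 2198.

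Of the genes for 5 proteins known to bind MDM2 (RPL5, RPL11, RPL23, RPL26 and RPS7), all 5 rose with suffix d_2 (median 0.39), none was called with suffix d (median 0.02), and Rpl11 was the only one called in the average over genotypes. Beside this, 70 of all 76 genes and 20.5% of all genes tested rose with suffix d_2. Rpl11 had 342, 312, 404 and 373 in the poly(I:C) libraries of suffix d_2, in the order FancgKO_Mdm4Tg, FancgKO, Mdm4Tg and WT, against 154 to 260 (median 195) in the PBS libraries of suffix d_2. With suffix d it had 205 to 335 with poly(I:C) against 209 to 288 with PBS. All 4 poly(I:C) values of suffix d_2 lay above all 8 PBS values, with a log2 difference of 0.82 ± 0.14 (adjusted p = 0.000133), and the averaged difference was 0.48 ± 0.12 (adjusted p = 0.00777). Rpl5, which enters the ribosome in the same particle as Rpl11, had 500, 477, 479 and 477 in the poly(I:C) libraries of suffix d_2, in the same order, against 367 to 464 (median 400) in the PBS libraries of suffix d_2, a log2 difference of 0.26 ± 0.08 (adjusted p = 0.0130). With suffix d it had 399 to 496 with poly(I:C) against 426 to 512 with PBS. Rpl23, Rpl26 and Rps7 rose by 0.39 ± 0.12, 0.53 ± 0.13 and 0.30 ± 0.12 with suffix d_2 (adjusted p = 0.0128, 0.00352 and 0.0450). Among 12 p53 partners and targets, Pmaip1, which encodes the death-promoting protein NOXA, rose in the average over genotypes by 0.93 ± 0.27 (adjusted p = 0.0165). Mdm4 fell in that average (-0.22 ± 0.08, adjusted p = 0.0425), and the other 10 were not called. With suffix d_2, Pmaip1 (0.99 ± 0.38, adjusted p = 0.0432) and Ccng1 (0.32 ± 0.08, 0.00465) rose and Mdm4 fell (-0.37 ± 0.08, 0.00149). Zmat3 was called with suffix d (0.84 ± 0.19, adjusted p = 0.0279) but not with suffix d_2 (0.07 ± 0.19, 0.794), and Mdm4 was at -0.05 ± 0.08 with suffix d.

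Of the 19 genes linked to Diamond-Blackfan anaemia in people, 7 rose in the average over genotypes (median 0.33), 18 with suffix d_2 (median 0.53) and none with suffix d (median 0.06). Beside this, 26 of all 76 genes rose in the average and 70 with suffix d_2, and of all genes tested 11.9% and 20.5%, so the counts are near those of the 76 as a whole. Rps19, the gene most often affected in that disease and needed for the maturation of 18S ribosomal RNA, had 734, 690, 692 and 674 in the poly(I:C) libraries of suffix d_2, in the order FancgKO_Mdm4Tg, FancgKO, Mdm4Tg and WT. It had 412 to 611 (median 547) in the PBS libraries of suffix d_2, and with suffix d 566 to 835 with poly(I:C) against 605 to 848 with PBS. The poly(I:C) libraries of suffix d_2 thus lay above the PBS libraries of suffix d_2 but within the range of suffix d. Rps19 rose by 0.41 ± 0.10 with suffix d_2 (adjusted p = 0.00352), and its averaged difference of 0.27 ± 0.10 did not pass (adjusted p = 0.0589). Rps15a, whose averaged difference of 0.40 ± 0.09 had the smallest adjusted p of the 76 (0.00495), was among the 7. Rpl27 had 276, 183, 222 and 242 in the poly(I:C) libraries of suffix d_2, in the same order, against 85.0 to 159 (median 102) in the PBS libraries of suffix d_2, the largest difference of the 76 at 1.08 ± 0.16 (adjusted p = 5.44e-05). Rps24, another gene of that disease, had 1140, 1101, 1281 and 1150 against 932 to 1329 (median 1109) in the same 2 sets, with no difference beyond the spread (0.07 ± 0.08, adjusted p = 0.481).

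**Figure D3:**
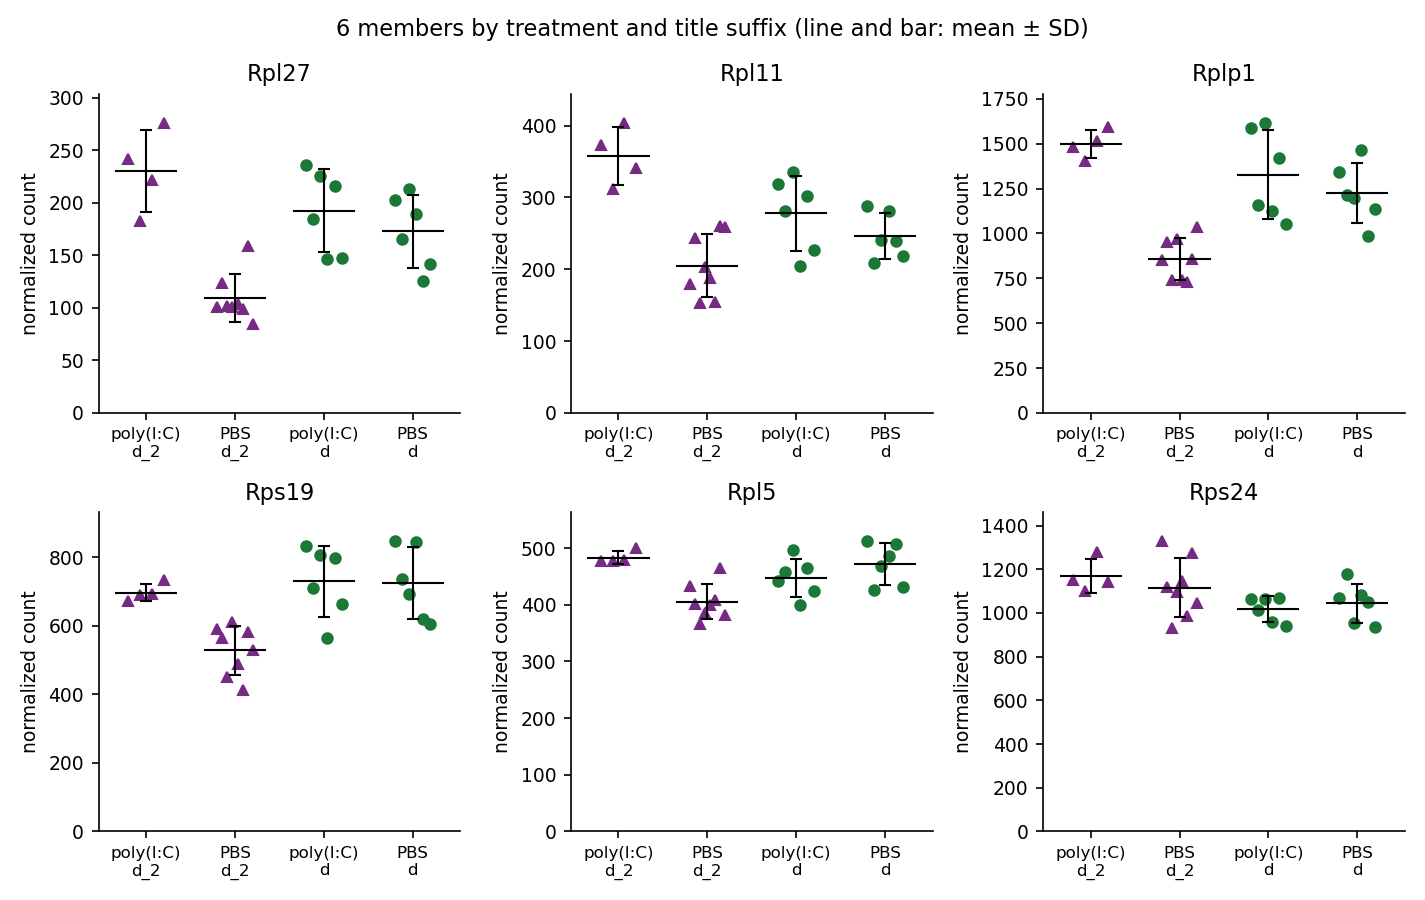
Normalized count of Rpl27, Rpl11, Rplp1, Rps19, Rpl5 and Rps24 in every library by treatment and title suffix, with a line at the mean and bars of ± SD (n = 4, 8, 6 and 6 from left to right). These 6 genes were chosen after their values were seen, to show the range from the largest difference (Rpl27) to the smallest (Rps24), and for Rpl27, Rpl11 and Rplp1 every poly(I:C) library of suffix d_2 lies above every PBS library of suffix d_2.

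Over the 76 genes, 39 had all 4 poly(I:C) libraries of suffix d_2 above all 8 PBS libraries of suffix d_2, where 13.6% of all genes tested separated in that direction. With suffix d no gene of the 76 had its 6 poly(I:C) libraries all above its 6 PBS libraries, where 0.436% of all genes did. Rps27a, which is made as a fusion of ubiquitin with a 40S protein, had 873, 723, 682 and 849 in the poly(I:C) libraries of suffix d_2, in the order FancgKO_Mdm4Tg, FancgKO, Mdm4Tg and WT, against 439 to 687 (median 569) in the PBS libraries of suffix d_2. Its averaged log2 difference was 0.32 ± 0.10 (adjusted p = 0.0328). Rpsa, which also serves as a laminin receptor, had 979, 844, 789 and 896 in the poly(I:C) libraries of suffix d_2, against 480 to 769 (median 615) in the PBS libraries of suffix d_2. Its averaged difference was 0.38 ± 0.16 (adjusted p = 0.0885), and with suffix d_2 it rose by 0.51 ± 0.11 (0.00125). Of the 4 genes on the X chromosome, Rpl39 and Rpl10 rose with suffix d_2, by 0.74 ± 0.11 and 0.52 ± 0.12 (adjusted p = 6.34e-05 and 0.00158), while Rpl36a at 0.29 ± 0.12 (0.0586) and Rps4x at 0.23 ± 0.11 (0.0959) did not pass. Rpl22, a gene whose protein binds RNA outside the ribosome and is needed for T cell development in mice, had 484, 393, 527 and 458 in the poly(I:C) libraries of suffix d_2, against 316 to 461 (median 390) in the PBS libraries of suffix d_2. These ranges overlapped, and the log2 difference was 0.26 ± 0.09 (adjusted p = 0.0295).

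The suffix itself went with larger differences than poly(I:C) for many genes. With PBS, 60 of the 76 were lower in suffix d_2 than in suffix d and none was higher, where 18.8% of all genes were lower, with a median log2 difference of -0.55 and a range of -1.47 to 0.19. Leaving out 1 library at a time gave 57 to 62. For 36 genes all 8 PBS libraries of suffix d_2 lay below all 6 of suffix d, where 5.22% of all genes tested did so. The lowest were Rpl29, a heparin-binding 60S protein, at -1.47 ± 0.21, Rps15 at -1.28 ± 0.10, Rpl36 at -1.18 ± 0.18, Rpl19 at -1.15 ± 0.11 and Rpl41 at -1.09 ± 0.13, and the smallest adjusted p of the 76 was 6.84e-09. With poly(I:C) 17 genes were lower in suffix d_2 and 5 were higher, where 13.3% of all genes were lower and 15.4% higher, with a median of -0.08. The 5 higher were Rpl39 at 0.74, Rpl23a at 0.55, Rps21 at 0.52, Rps20 at 0.46 and Rps15a at 0.38. The called total of 22 was 14 to 29 when 1 library at a time was left out, and 14 without WT poly(I:C) number 8. Megakaryocyte markers also differed by suffix, with a sum of 111 to 289 in suffix d_2 against 416 to 747 in suffix d. With PBS, the granulocyte sums given above did not overlap between the suffixes either, while monocyte and erythroid sums did. The part of these cell types in the ribosomal protein values was not tested.

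**Figure D4:**
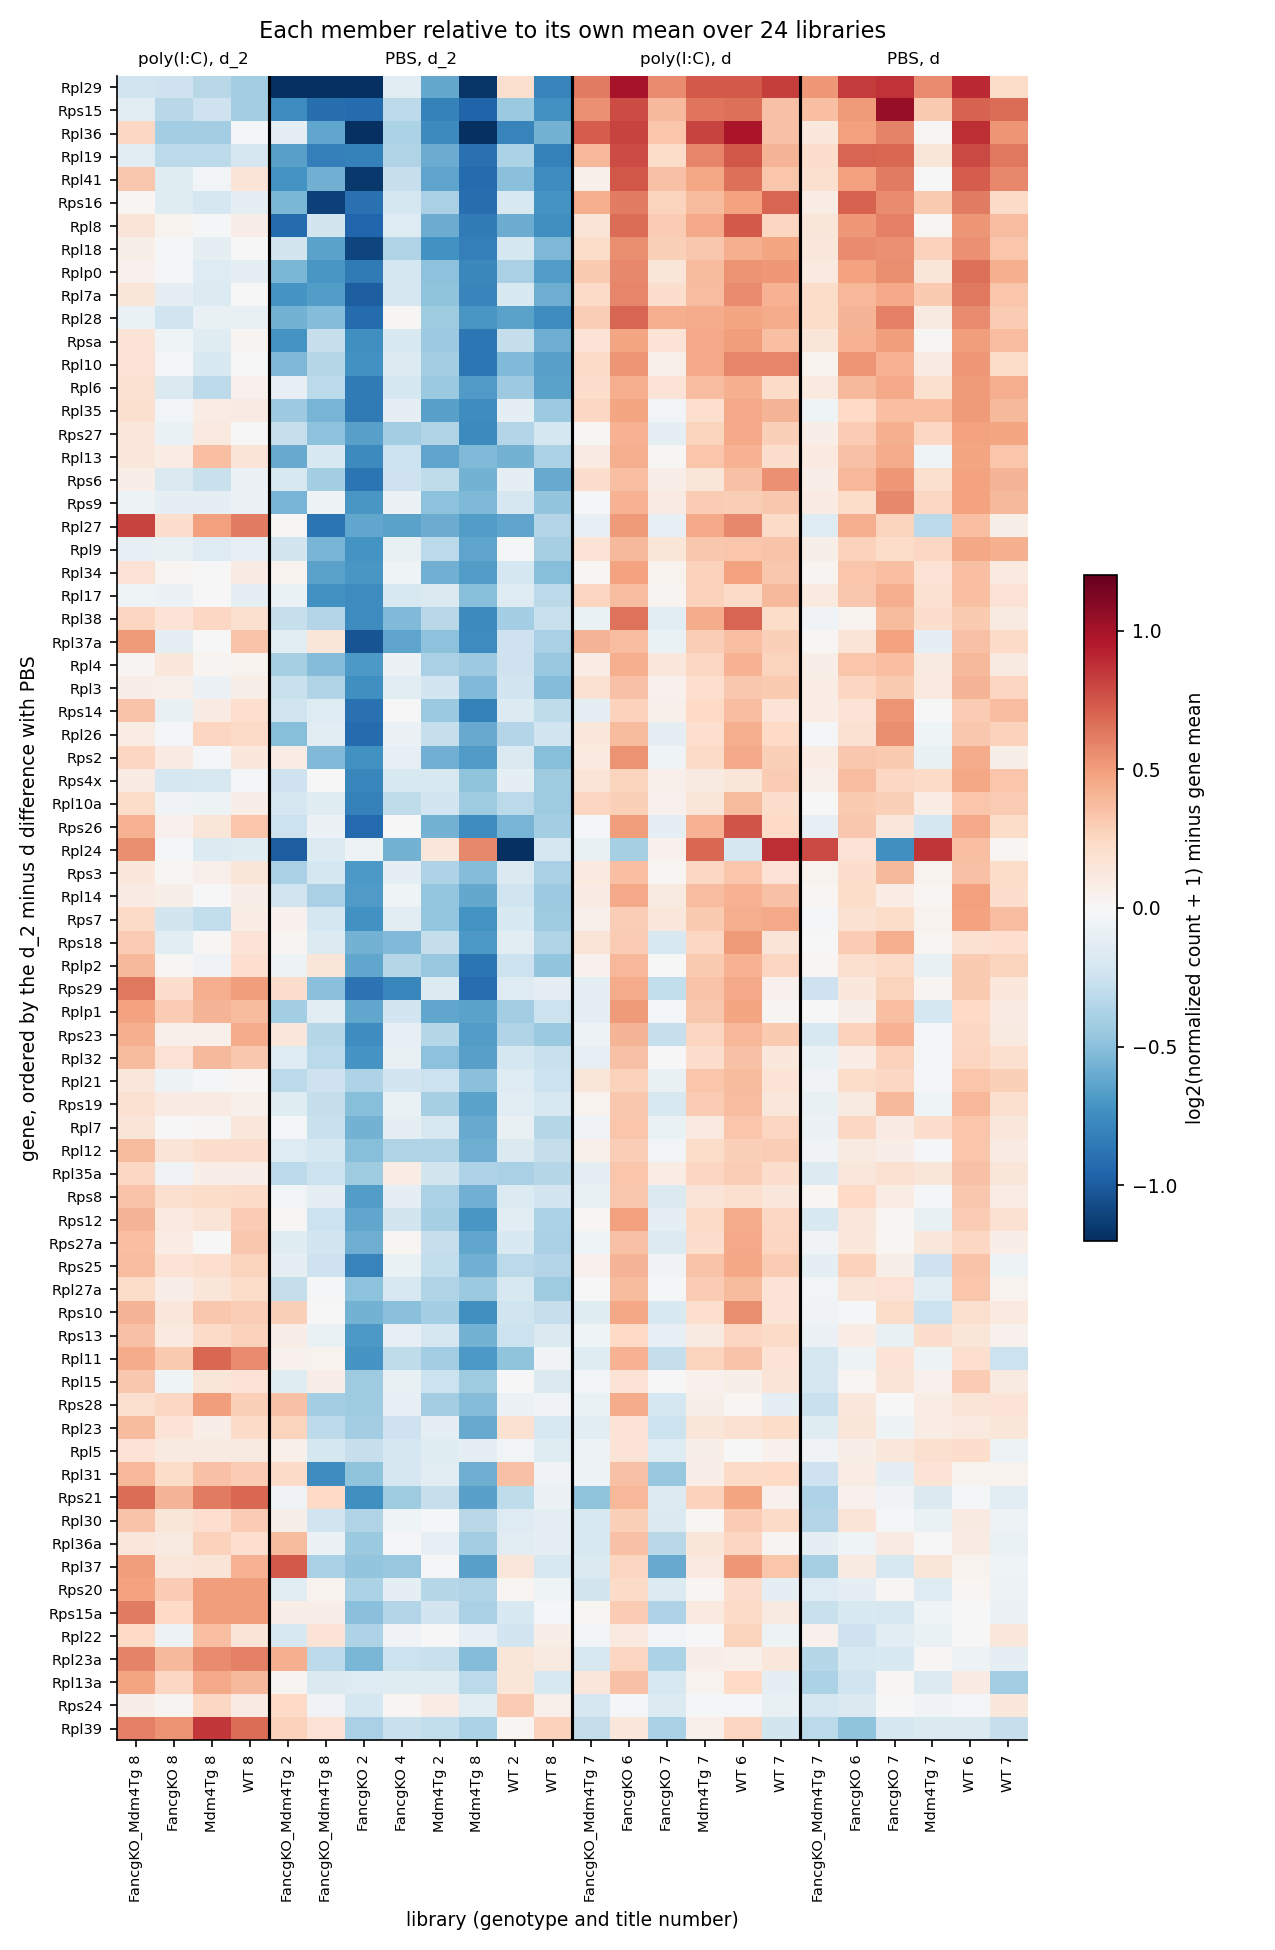
Of the 76 genes, 72 (rows, ordered by the suffix d_2 minus suffix d difference with PBS) in each of the 24 libraries (columns, by treatment and suffix), coloured by log2(normalized count + 1) minus the gene's mean over all libraries, with colours held at 1.2 in either direction. The 8 PBS libraries of suffix d_2 are blue for most genes. The top rows (Rpl29, Rps15, Rpl36, Rpl19) stay pale or blue in the poly(I:C) libraries of suffix d_2. Rpl39, Rpl13a and Rpl23a, which are some of the bottom rows, are red there.

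Of the 5 genes with the widest spread over all 24 libraries, 4 were the top rows of that heat map. The SD of log2(normalized count + 1) was 0.85 for Rpl29, 0.70 for Rpl36, 0.65 for Rps15, 0.59 for Rpl19 and 0.57 for Rpl24, against a median of 0.35. Rpl29 had 84.9, 84.2, 79.1 and 74.8 in the poly(I:C) libraries of suffix d_2, in the order FancgKO_Mdm4Tg, FancgKO, Mdm4Tg and WT, against 27.2 to 114 (median 50.8) in the PBS libraries of suffix d_2. All 12 libraries of suffix d exceeded these, with 149 to 199 with poly(I:C) against 117 to 187 with PBS. Rps15 likewise had 198 to 241 with poly(I:C) against 135 to 212 with PBS in suffix d_2, and 339 to 456 against 330 to 549 in suffix d. Rpl24 is a low count, at 3.81 to 22.2 over all libraries, so its spread includes counting noise. The steadiest genes were Rpl5 and Rps24 with an SD of 0.14 each, Rpl22 at 0.17, Rpl15 at 0.20 and Rpl30 at 0.22. Rpl39 followed neither pattern, with 807, 767, 952 and 839 in the poly(I:C) libraries of suffix d_2, in the same order, above all PBS libraries of suffix d_2 at 404 to 640 and all libraries of suffix d, which had 404 to 630 with poly(I:C) against 378 to 470 with PBS.

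GC content of the transcripts of the 76 genes ranged from 41.3% to 60.8%, with a median of 51.8% against 49.1% over 12303 tested genes. As a description across genes that share the same libraries, the log2 difference of suffix d_2 minus suffix d with PBS had a Pearson r of -0.47 and a Spearman rho of -0.42 with GC content over the 76 genes. The averaged poly(I:C) difference had an r of 0.50 and a rho of 0.43. That comparison has no term for the suffix, and suffix d_2 holds 8 of the 14 PBS libraries but 4 of the 10 poly(I:C) libraries. Within suffix d_2 the poly(I:C) difference had an r of 0.35 and a rho of 0.34, and within suffix d an r of 0.15 and a rho of 0.09. The part that GC content of the libraries played was not tested.

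Within single genotypes poly(I:C) called none of the 76 genes by limma, edgeR or DESeq2, but few genes of any kind were called by limma. The share of all genes called was 0% in FancgKO_Mdm4Tg, 0% in FancgKO, 0% in Mdm4Tg and 0.0158% in WT, while 1082, 914, 1605 and 1881 of all genes had an unadjusted p under 0.05, given in that order. Among the 76 genes 1, 2, 24 and 7 had an unadjusted p under 0.05 in the same order of genotypes. The median log2 difference over the 76 was 0.32 in FancgKO_Mdm4Tg (74 positive), 0.23 in FancgKO (76 positive), 0.52 in Mdm4Tg (75 positive) and 0.27 in WT (75 positive). The genes with the smallest p were Rpl13a at 0.47 ± 0.21 (adjusted p = 0.572) and Rpl27 at 0.70 ± 0.34 in FancgKO_Mdm4Tg, Rps15a at 0.36 ± 0.17 (0.682) and Rps21 at 0.50 ± 0.23 in FancgKO, Rplp1 at 0.86 ± 0.25 and Rpl11 at 0.87 ± 0.26 (0.290 each) in Mdm4Tg, and Rpl11 at 0.51 ± 0.22 (0.285) and Rps21 at 0.53 ± 0.24 (0.306) in WT. In each genotype the poly(I:C) group and the PBS group hold different shares of the 2 suffixes. With only libraries of suffix d the FancgKO median turned to -0.070 and the Mdm4Tg median was 0.21. The FancgKO_Mdm4Tg median was 0.21 without its poly(I:C) library number 8. The Mdm4Tg median was 0.34 without its PBS library number 8. The WT median was 0.16 without its PBS library number 8. The FancgKO median was 0.013 without PBS number 2 and 0.092 without poly(I:C) number 6. It was 0.35 without PBS number 6 and 0.36 without PBS number 7.

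The Mdm4 transgene and the loss of Fancg changed no gene of the 76 by limma, edgeR or DESeq2 in any of the comparisons of genotypes, where 0.00792% and 0.0158% of all genes were called in the 2 averaged comparisons and 325 and 267 had an unadjusted p under 0.05. Averaged over Fancg status and treatment, the transgene gave a median of -0.11 over the 76 genes, with 13 positive and none with an unadjusted p under 0.05. The largest were Rpl39 at 0.10 ± 0.13, Rps15a at 0.10 ± 0.09, Rpl22 at 0.08, Rpl23a at 0.03 and Rpl13a at 0.02, and the lowest included Rpl29 at -0.45 ± 0.32, Rpl19 at -0.32, Rps16 at -0.29 and Rps15 at -0.28. This comparison has no term for the suffix, and a smaller share of the transgene libraries has suffix d. With PBS, suffix d_2 minus suffix d was -1.47 for Rpl29, -1.15 for Rpl19 and -1.28 for Rps15. It was 0.19 for Rpl39, 0.08 for Rpl13a, 0.0013 for Rpl23a, -0.06 for Rpl22 and -0.07 for Rps15a. With only libraries of suffix d, each of the highest genes named here turned negative. The part of the suffix in this order was not tested further. Averaged over transgene status and treatment, loss of Fancg gave a median of -0.03 (-0.057 to 0.022 with 1 library left out), with 23 positive and none with an unadjusted p under 0.05. The largest were Rplp2 at 0.09 ± 0.12, Rps2 at 0.08, Rpl36 at 0.08, Rpl37a at 0.07 and Rpl6 at 0.06, and the lowest were Rpl31 at -0.16 ± 0.12, Rpl37 at -0.14, Rps29 at -0.13, Rpl29 at -0.13 and Rpl38 at -0.12. A missed threshold here does not show that the levels were equal.

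With PBS, the Mdm4 transgene alone gave the lowest median of the comparisons between genotypes. Mdm4Tg against WT had a median of -0.30 (-0.48 without Mdm4Tg number 7, -0.16 without Mdm4Tg number 8 and -0.20 without WT number 6) with 1 gene of the 76 positive (Rpl24, at 0.82 from low counts) and 2 with an unadjusted p under 0.05, none called, where 0.00792% of all genes were called and 317 had an unadjusted p under 0.05. Rps19 had 489, 621 and 412 in the Mdm4Tg libraries, against 591, 848, 738 and 566 in the WT libraries. Its log2 difference was -0.44 ± 0.19 (adjusted p = 0.999). The Mdm4Tg PBS group has 1 library of 3 with suffix d and the WT PBS group has 2 of 4. FancgKO against WT had a median of -0.09, with Rps24 at -0.21 ± 0.12 and Rpl22 at -0.20 ± 0.12, where 0% of all genes were called and 497 had an unadjusted p under 0.05. Its sign turned when 1 library was left out, to 0.099 without FancgKO number 2 and 0.038 without WT number 6, and it was -0.22 without FancgKO number 7. FancgKO_Mdm4Tg against FancgKO had a median of -0.06, with Rps15a at 0.27 ± 0.17 (0.00792% of all genes called). The sign of that median turned as well, to 0.030 without FancgKO number 6, 0.048 without FancgKO number 7 and 0.0063 without FancgKO_Mdm4Tg number 8, and it was -0.28 without FancgKO number 2. FancgKO_Mdm4Tg against WT had a median of -0.15 (-0.27 to -0.034 with 1 library left out, the ends being WT numbers 8 and 6), with Rpl29 at -0.98 ± 0.59 and Rpl31 at -0.36 ± 0.22 (0.00792% called).

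With poly(I:C), FancgKO against WT had a median of -0.12 with Rpl37 at -0.49 ± 0.27 and Rps23 at -0.33 ± 0.25 (0% of all genes called), and Mdm4Tg against WT had -0.10 with Rps7 at -0.32 ± 0.28 and Rps27a at -0.23 ± 0.23 (0.00792%). FancgKO_Mdm4Tg against FancgKO had a median of 0.00 with Rps15a at 0.26 ± 0.20 and Rpl37a at 0.40 ± 0.31 (0.00792%). With 1 library left out these 3 medians ran from -0.25 to -0.043, from -0.22 to -0.0063 and from -0.081 to 0.15. The interactions, which ask whether one factor changes the effect of another, also called none of the 76 genes and 0% of all genes. Their medians over the 76 were 0.14 for the transgene with poly(I:C) (Rps19 at 0.32 ± 0.21 and Rpl21 at 0.27 ± 0.20), -0.09 for Fancg loss with poly(I:C) (Rpl11 at -0.41 ± 0.24 and Rps10 at -0.36 ± 0.22) and 0.15 for the transgene with Fancg loss (Rpl37a at 0.64 ± 0.29). With 1 library left out the 3 medians kept their sign, at 0.075 to 0.24, -0.20 to -0.019 and 0.071 to 0.24. Several of these comparisons share the same WT or FancgKO libraries.

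**Figure D5:**
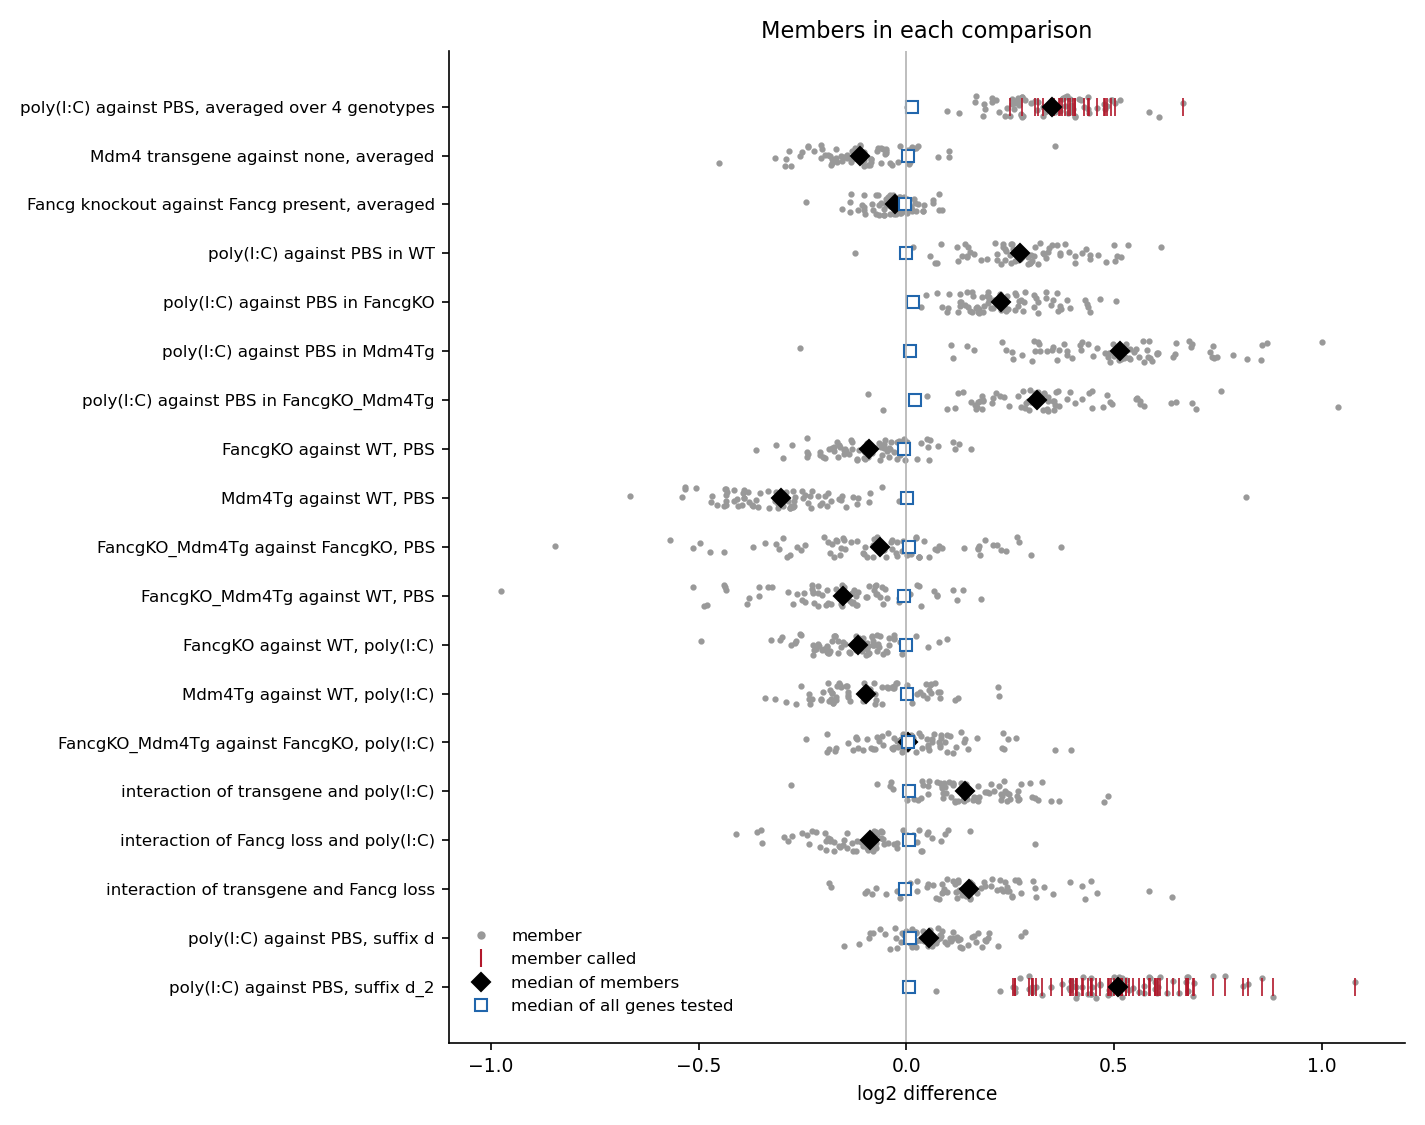
Log2 difference of each of the 76 genes (grey points, red ticks where called) in 19 comparisons, with a black diamond at their median and an open square at the median of all genes tested. Red ticks appear in the averaged poly(I:C) comparison (26) and the poly(I:C) comparison with suffix d_2 (70), and in none of the other 17.

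Of the 7 relatives outside the symbol rule that passed the filter, Rps27l was the only one called in the average over genotypes. Rps27l, a paralogue of Rps27 known as a p53 target, had 377, 316, 296 and 354 in the poly(I:C) libraries of suffix d_2, in the order FancgKO_Mdm4Tg, FancgKO, Mdm4Tg and WT, against 98.1 to 223 (median 141) in the PBS libraries of suffix d_2. With suffix d it had 156 to 288 with poly(I:C) against 118 to 225 with PBS. It rose by 0.76 ± 0.16 in the average (adjusted p = 0.00221) and by 1.22 ± 0.17 with suffix d_2 (3.31e-05). None of the other 6 relatives tested was called in the average, with values that included 0.49 for Fau (adjusted p = 0.126), 0.46 for Rpl36al (0.218), 0.21 for Rpl7l1 (0.0857), 0.20 for Rpl22l1 (0.143) and 0.14 for Rps3a1 (0.378). With suffix d_2, 6 of the 7 rose, and Rpl39l, Rpl3l, Rpl10l and Rps4l were under the filter. Of all genes tested, 11.9% rose in the average and 20.5% with suffix d_2, so 1 call among 7 in the average is near the share of all genes. Fau, which encodes a ubiquitin-like protein fused to a 40S protein, had 119 to 147 with poly(I:C) against 68.9 to 124 with PBS in suffix d_2, and 209 to 250 against 161 to 248 in suffix d.

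Lists of genes around the ribosome were counted in the same comparisons. Of 16 elongation factors and other products of TOP mRNAs, 3 rose with poly(I:C) in the average (median 0.25), 12 with suffix d_2 (median 0.39) and none with suffix d (median 0.02). They were Npm1, a nucleolar chaperone, at 0.34 ± 0.11 (adjusted p = 0.0312), Eef1d at 0.32 ± 0.11 (0.0400) and Pabpc1, the poly(A)-binding protein, at 0.27 ± 0.08 (0.0244). Of 29 genes of ribosome assembly and RNA polymerase I, 10 rose in the average (median 0.26), 15 with suffix d_2 (median 0.34) and none with suffix d (median 0.15). They include Nhp2 at 0.70 ± 0.17 (adjusted p = 0.00656) and Nop10 at 0.57 ± 0.15 (0.00848), both of the box H/ACA particle that makes pseudouridine, and Pes1 at 0.41 ± 0.11 (0.0124), which acts in 60S maturation. Of 16 genes that control growth and ribosomal protein mRNA, Larp1 rose in the average by 0.38 ± 0.08 (adjusted p = 0.00373). Myc, an activator of ribosome genes, rose by 0.34 ± 0.09 (0.0132). Mycn fell (-0.63 ± 0.11, adjusted p = 0.000984) as did Rictor of mTOR complex 2 (-0.32 ± 0.09, 0.0121). Larp1 did not follow the split by suffix, at 0.40 ± 0.11 with suffix d (adjusted p = 0.0779) and 0.36 ± 0.11 with suffix d_2 (0.0165). Myc, Mycn and Rictor were at 0.23, -0.44 and -0.19 with suffix d against 0.36, -0.83 and -0.41 with suffix d_2. Of 13 genes of mitochondrial ribosomal proteins, 5 rose in the average (median 0.44), 8 with suffix d_2 (median 0.75) and none with suffix d (median 0.18), led by Mrpl20 at 0.74 ± 0.16 (adjusted p = 0.00256). Beside these, 11.9% of all genes rose in the average and 20.5% with suffix d_2. The lists in this paragraph were chosen with earlier results of these data known, so their counts do not stand for whole gene families.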

How the data were processed

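RNA of sorted mouse LSK cells was made into libraries with the CATS RNA-seq kit and sequenced on a NextSeq 500, per the labels' protocols. The submitters' processing notes name STAR and mm10, and versions and the gene counter are not given in the sources used here. The authors deposited 1 table of normalized counts (size-factor scaled signal). Dividing by each library's step gave whole reads for 100% of values (relative tolerance 1e-06). Of its columns, 3 match no sample and were not used. Of the genes, 16217 carry a symbol in the table, 10006 were named from GENCODE M21 by ID, and 44 have no name.

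Tests were limma 3.58.1 (trend) in R 4.3.3 on log2(normalized count + 1) with 8 group means, over the 12628 genes with at least 10 in at least 2 libraries, with Benjamini-Hochberg adjusted p under 0.05 as the call. edgeR 4.0.16 and DESeq2 1.42.0 on the recovered reads, other pseudocounts (0.5 and 10), filters (none and 50), TMM, scaling without the 76 genes, a replicate block, the title suffix as covariate and leaving out each library were alternatives, and fits by suffix were added after the data were seen. The script was tested on simulated counts. Fold changes on this scale understate changes of low genes.

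The members and lists were chosen with earlier results of these data known. Genes named are the 5 highest and 5 lowest in each averaged comparison (mean of at least 50), the 2 with the smallest p in each other comparison, members of stated roles, the 5 most and 5 least variable, the relatives, and up to 4 genes of each list by p. A few more were named after their values were seen: those at the extremes of a fit by suffix, Rps15, Rpl39, Fau and the highest and lowest levels per kilobase. Same-numbered libraries deviated together over all genes tested (every pair's r above 0.1) for poly(I:C) in WT and for FancgKO against WT with either treatment. They also did for Mdm4Tg and FancgKO_Mdm4Tg against WT with PBS. Blocking on the number changed no call of a member in these comparisons. Proteins are not shown. Some genes that this rule picks are counted but their own values are not reported here.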

Additional observations from a re-analysis of the deposited data

How the results depend on the processing

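The count of genes called for poly(I:C) averaged over genotypes (26) was 16 with no filter, 41 with TMM, 48 with the suffix as covariate, 0 with only libraries of suffix d, 62 with only suffix d_2 and 7 to 40 when 1 library at a time was left out. Other pseudocounts, the filter at 50, scaling without the 76 genes (21), edgeR (26) and DESeq2 (31) stayed within 1.5 times, and so did a replicate block (35), though the numbers did not pair the samples by the rule used here (lowest r 0.0528 among same-numbered pairs). With only suffix d_2, poly(I:C) called 2 genes in FancgKO_Mdm4Tg, 3 in FancgKO, 9 in Mdm4Tg and 3 in WT, where 3.51%, 2.08%, 2.23% and 3.96% of all genes were called. Each of these has 1 poly(I:C) library, assumed to vary like the other groups, so the counts say nothing of replication. The replicate block called 4 in Mdm4Tg. With only suffix d, the median was -0.070 in FancgKO and 0.21 in Mdm4Tg. The difference between the suffixes in response (0) was 2 with pseudocount 10, 1 with the filter at 50, 13 with TMM, 1 with edgeR, 14 with DESeq2 and 0 to 32 with 1 library left out. That range was 44 to 72 for the response in suffix d_2 and 14 to 29 for suffix d_2 against d with poly(I:C). The cause was not tested.

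Single genes also turned sign. In the averaged poly(I:C) comparison with only suffix d these were Rpl24 (-0.20, and -0.068 with the replicate block), Rpl5 (-0.076), Rps4x (-0.087), Rps3a1 (-0.093), Rpl22l1 (-0.048) and Rps24 (-0.022, with -0.042 under scaling without the 76 genes and -0.034 to 0.036 with 1 library left out). In the averaged transgene comparison they were Rpl13a (-0.0053 with the suffix as covariate, -0.056 with suffix d, -0.028 to 0.074 with 1 library left out), Rpl22 (-0.019 with suffix d), Rpl23a (-0.0091, -0.050, -0.070 to 0.13), Rpl39 (-0.015 with suffix d, -0.0088 to 0.21) and Rps15a (-0.024 with suffix d). In the averaged Fancg comparison they were Rpl29 (0.029 with suffix d, -0.30 to 0.0012), Rpl36 (-0.057, -0.076 to 0.23), Rpl6 (-0.080, -0.022 to 0.15), Rplp2 (-0.091) and Rpl37 (0.033 with suffix d_2). In FancgKO_Mdm4Tg against FancgKO, Rps15a was -0.078 with suffix d and PBS, and -0.035 to 0.56 with poly(I:C) and 1 library left out. Depth limits Rpl24 most, with 3.81 to 22.2 normalized counts.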
